A study of Mus musculus with 24 samples.

Results

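The 10 genes of the epithelial-mesenchymal transition (EMT) analysed here were followed in mouse embryonic stem cells (ESCs) and expanded potential stem cells (EPSCs). They were chosen by symbol and comprise the epithelial genes Cdh1, Epcam and Esrp1, the mesenchymal genes Cdh2 and Vim, and the transcription factors Snai1, Snai2, Zeb1, Zeb2 and Twist1. All 10 were listed in both tables of normalized gene counts, out of 22233 genes listed in both. EPSCs are cultured from ESCs in media reported to widen their potential, and poly(A) RNA of 24 libraries was sequenced with 2 replicates per group.

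In the first table, wild-type J1 ESCs, which were grown with serum, LIF and the 2i inhibitors CHIR99021 and PD0325901 on inactive mouse embryonic fibroblast (MEF) feeders or on gelatin, were compared with EPSCs of both protocols. D-EPSCs had been kept in N2B27-based medium with LIF, CHIR99021, dimethindene maleate and minocycline, and L-EPSCs in medium with LIF, CHIR99021, PD0325901, A-419259, XAV939, JNK inhibitor VIII and SB203580. The second table holds tet-off knock-in lines for Oct4 (ZHBTc4), Sox2 (2TS22C) and Nanog (NgcKO), in which the endogenous gene is deleted and a transgene that doxycycline (Dox) silences supplies the factor. Each was profiled as ESCs, as untreated L-EPSCs and as L-EPSCs with Dox. Every line stands for its genotype by itself, and tet-off D-EPSCs are not in the table. Neither the duration of Dox before RNA extraction nor the independence of the replicates is stated. The p-values set differences against the spread between replicate libraries, pooled over a table, and that spread may be technical. Labels were met by the targeted transcripts: with Dox, Pou5f1 (Oct4) stood at 162 and 184 normalized counts in the Oct4 line against 6420 and 6316 without, Sox2 at 47.0 and 53.1 in the Sox2 line against 4966 and 4701, and Nanog at 3166 and 3112 in the Nanog line against 9119 and 8847.

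In an EMT, cells joined in a sheet loosen their junctions and take on a migratory, mesenchymal shape. Cdh1 encodes E-cadherin, which joins neighbouring epithelial and naive pluripotent cells, while Cdh2 encodes the N-cadherin of mesenchymal and neural cells. Epcam is a surface adhesion protein of epithelia and ESCs, Esrp1 a splicing factor that sets epithelial isoforms, and Vim the intermediate filament vimentin. Snai1, Snai2, Zeb1, Zeb2 and Twist1 are transcription factors. The Snai and Zeb proteins are best known as repressors of Cdh1 that act through an E-box sequence.

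That E-box was searched for as CACCTG on either strand (CAGGTG when read on the other strand) in promoters of RefSeq on GRCm38.p6, which run from 250 bases before to 50 bases after a gene's start. Of the members, 5 had a promoter there: Epcam, Vim, Snai1, Twist1 and Zeb2, the last with 4 windows. With matches in capitals, 3 are printed that span an epithelial gene with 2 matches, a factor gene with 1 and a mesenchymal gene with none. The Epcam window is chr17:87635729-87636028, that of Snai1 is chr2:167537945-167538244 and that of Vim is chr2:13574061-13574360, all on the plus strand.
Epcam: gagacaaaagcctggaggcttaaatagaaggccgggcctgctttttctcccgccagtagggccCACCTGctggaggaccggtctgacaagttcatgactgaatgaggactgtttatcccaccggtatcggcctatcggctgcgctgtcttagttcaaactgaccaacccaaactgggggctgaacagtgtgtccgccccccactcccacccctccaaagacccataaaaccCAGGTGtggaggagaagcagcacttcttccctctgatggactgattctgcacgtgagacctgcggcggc
Snai1: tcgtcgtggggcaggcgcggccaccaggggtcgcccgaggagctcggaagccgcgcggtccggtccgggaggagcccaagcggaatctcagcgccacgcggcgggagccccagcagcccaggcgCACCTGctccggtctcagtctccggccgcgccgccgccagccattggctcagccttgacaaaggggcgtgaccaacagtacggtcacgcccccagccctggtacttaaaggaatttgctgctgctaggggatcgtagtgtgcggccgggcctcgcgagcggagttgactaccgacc
Vim: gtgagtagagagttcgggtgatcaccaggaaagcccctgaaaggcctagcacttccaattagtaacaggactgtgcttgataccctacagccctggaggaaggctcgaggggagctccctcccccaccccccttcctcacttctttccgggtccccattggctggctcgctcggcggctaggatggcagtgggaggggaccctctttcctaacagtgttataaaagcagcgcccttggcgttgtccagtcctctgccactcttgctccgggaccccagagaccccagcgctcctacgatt
In the Epcam window the matches began 187 and 19 bases before the start, and in the Snai1 window the match began 126 bases before it. Twist1 and all Zeb2 windows held no match. Of 32851 promoters of this length, 20.2% held at least 1 match and 2.88% at least 2. A match describes letters and was not tested as a binding site.

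Expression values are normalized counts, that is gene counts divided by a size factor for each library, and both tables were normalized separately, so tests stay within a table. Libraries held between 11612919 and 15069899 reads on genes in the J1 table and between 10807631 and 14798984 in the tet-off table. A gene was called where limma gave a Benjamini-Hochberg adjusted p under 0.05 over all genes tested and a log2 fold change beyond 0.6, or beyond 1 for Dox, and the words rose and fell are kept for called genes. With 2 libraries against 2, an exact permutation test of a single gene could not go below p = 0.333, so the calls rest on limma's variance shared across genes.

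RNA of other cell types was measured beside the members, since fibroblasts express Vim and EMT factors. The methods describe both EPSC states as grown without feeders for several passages before sequencing, and do not say whether the sequenced J1 ESCs were on feeders or gelatin, so the source of fibroblast RNA in the J1 libraries is not given. All 18 fibroblast markers of a fixed list had over 3 reads in every J1 library, and their summed level was 132686 and 135385 in ESCs, 84608 and 84652 in D-EPSCs, and 32789 to 33304 in L-EPSCs. The sum is carried by a few abundant collagens, with Col1a1 at 44565 and 46016 in ESCs and 19651 and 20021 in D-EPSCs. Over the list, 5 genes rose and 7 fell in D-EPSCs against ESCs (median log2 fold change -0.12), and Lum and Thy1 had higher levels there, whereas in L-EPSCs 0 rose by limma and 13 fell (median -1.44). In the tet-off table the 17 listed genes summed to between 612 and 1633, and from 10 to 13 of them had over 3 reads in a library. Defining markers differed there: Lum was at 0 in 17 of 18 libraries and Col3a1 had at most 2 reads, while Thy1, at 342 and 365 in Oct4 ESCs, and Pdgfrb, at 358 and 322 in untreated Oct4 L-EPSCs, were well detected. All 12 macrophage markers had over 3 reads in every J1 library. They summed to between 2915 and 2962 in ESCs, between 24678 and 24778 in D-EPSCs and between 18291 and 18370 in L-EPSCs. The 10 listed in the tet-off table summed to between 194 and 799, and from 1 to 4 of them had over 3 reads in a library. The J1 states therefore differed in fibroblast and macrophage RNA together with culture, and the part of these cells in the J1 values of Vim, Cdh2 and the factors was not tested. In bulk RNA, fewer cells of a type and less RNA per cell cannot be told apart.

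**Figure D1:**
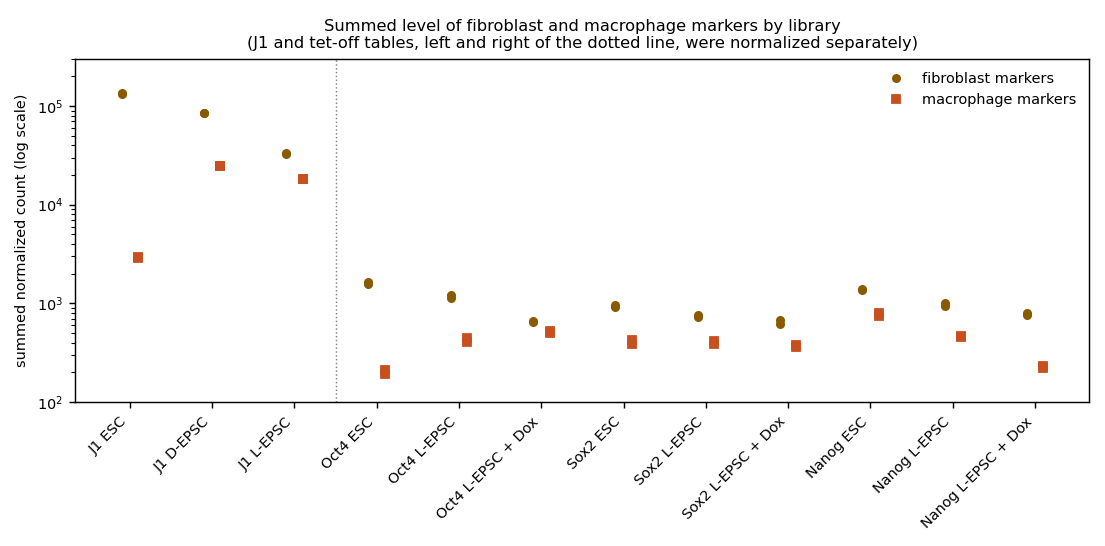
Summed normalized counts (log scale) of the fibroblast and macrophage marker lists in each of the 24 libraries, by group, with the J1 table left and the tet-off table right of the dotted line. Fibroblast markers sum to at least 32789 in every J1 library and to at most 1633 in every tet-off library.

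Cdh1 was high in all states. Per kilobase of exon, mean Cdh1 was 1636 normalized counts in J1 ESCs, 918 in D-EPSCs and 958 in L-EPSCs, and from 1077 to 2500 over the 9 tet-off groups. Vim per kilobase was above Cdh1 in all J1 groups, at 3912 to 5032, and among tet-off groups only in Nanog ESCs, at 1711 against 1377. Factor levels were far lower, with mean Zeb2 at 21.7 to 36.8 per kilobase in the J1 groups and at 0.479 to 4.43 in the tet-off groups.

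Zeb1, the repressor most often paired with Zeb2 in EMT, was at the limit of detection. It had 0 reads in 21 of 24 libraries, 1 read in a D-EPSC library and 2 reads each in a J1 ESC library and an untreated Oct4 L-EPSC library. A count of 0 allows up to 3 reads per library, so any difference in Zeb1 was not detectable at this depth and no fold change is given. None of its exon bases was shared with another gene model of the NCBIM37 annotation, where it lies on chromosome 18 between 5591858 and 5775465. The low count stood beside J1 libraries rich in fibroblast RNA, and its cause was not tested.

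In J1 cells, Cdh1 was lower in both EPSC states while Epcam and Esrp1 were higher in D-EPSCs. Cdh1 (NCBIM37 chromosome 8, 109127251 to 109194146, plus strand) had 7461 and 7507 normalized counts in ESCs, 4165 and 4232 in D-EPSCs and 4307 and 4458 in L-EPSCs. ESCs lay above all EPSC libraries, and the 2 EPSC states lay close together without overlap. Cdh1 fell by 0.83 on the log2 scale in D-EPSCs (SE 0.03, adjusted p = 2.9e-07) and fell by 0.77 in L-EPSCs (SE 0.03, adjusted p = 4.7e-07), and L-EPSCs against D-EPSCs gave 0.06 (adjusted p = 0.12). Both comparisons with ESCs share the same ESC libraries.

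Epcam (chromosome 17, 88035319 to 88050446, plus strand) had 518 and 493 normalized counts in ESCs, 1727 and 1582 in D-EPSCs and 818 and 706 in L-EPSCs. The order of the states was the same in every library, with D-EPSCs highest and ESCs lowest. Epcam rose by 1.71 on the log2 scale in D-EPSCs (SE 0.08, adjusted p = 2.1e-06), while the L-EPSC value of 0.59 lay just inside the fold threshold (SE 0.08, adjusted p = 0.00067). L-EPSCs fell below D-EPSCs by 1.12 (SE 0.08, adjusted p = 3.9e-05).

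Esrp1 (chromosome 4, 11259080 to 11313930, minus strand) had 1.80 and 5.53 normalized counts in ESCs, from 2 and 6 reads, 57.2 and 64.6 in D-EPSCs and 32.9 and 34.5 in L-EPSCs. The ESC libraries were near the floor and well apart from all EPSC libraries. The fitted log2 fold change was 3.85 in D-EPSCs (SE 0.45, adjusted p = 0.00031) and 3.02 in L-EPSCs (SE 0.45, adjusted p = 0.0011), sizes that rest on the few ESC reads. Without either L-EPSC library the L-EPSC call was lost, with adjusted p of 0.051 and 0.054. L-EPSCs against D-EPSCs gave -0.83 (adjusted p = 0.22). Of the exon bases of Esrp1, 2.01% are shared with Gm16652 on the opposite strand, and the strand setting of the counting is not stated.

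The mesenchymal genes showed smaller differences in J1 cells. Vim (chromosome 2, 13495554 to 13504453, plus strand) had 9063 and 9207 normalized counts in ESCs, 11516 and 11746 in D-EPSCs and 11632 and 11867 in L-EPSCs. Every EPSC library lay above every ESC library, by a log2 fold change of 0.35 in D-EPSCs (adjusted p = 8.8e-06) and 0.36 in L-EPSCs (adjusted p = 7.1e-06), inside the fold threshold. Cdh2 (chromosome 18, 16747386 to 16967755, minus strand) had 232 and 209 in ESCs, 202 and 188 in D-EPSCs and 124 and 164 in L-EPSCs. L-EPSCs against ESCs gave a log2 fold change of -0.62 (SE 0.15, adjusted p = 0.012), a call at the edge of the threshold that was lost without either ESC library or without replicate 1 of the L-EPSCs, with log2 fold changes between -0.69 and -0.42. For D-EPSCs the value was -0.18 (adjusted p = 0.41). Between L-EPSCs and D-EPSCs neither was called, with -0.44 for Cdh2 (adjusted p = 0.059) and 0.01 for Vim (adjusted p = 0.66).

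Among the factors, Zeb2 was highest in D-EPSCs, and Snai2 and Twist1 were lowest in L-EPSCs. Zeb2 (chromosome 2, 44839154 to 44972915, minus strand) had 331 and 376 normalized counts in ESCs, 564 and 568 in D-EPSCs and 314 and 353 in L-EPSCs. ESC and L-EPSC libraries overlapped and both D-EPSC libraries lay above them. Zeb2 rose by 0.68 on the log2 scale in D-EPSCs (SE 0.09, adjusted p = 0.00064), a call lost without ESC replicate 1, where the log2 fold change was 0.59, and L-EPSCs against D-EPSCs gave -0.76 (adjusted p = 0.00054). L-EPSCs against ESCs gave -0.08 (adjusted p = 0.51). Of the Zeb2 exon bases, 3.01% are shared with the gene models AL929120.1 and Gm13476. Macrophages are known to express Zeb2, and the macrophage marker sum was likewise highest in D-EPSCs, although it was also high in L-EPSCs. Whether that RNA contributed was not tested.

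Twist1 (chromosome 12, 34642536 to 34644682, plus strand) had 105 and 113 normalized counts in ESCs, 86.8 and 109 in D-EPSCs and 51.4 and 49.4 in L-EPSCs. The L-EPSC libraries lay below the others, which overlapped. Twist1 fell by 1.10 on the log2 scale in L-EPSCs against ESCs (SE 0.18, adjusted p = 0.0019), and Snai2, with 116 and 74.7 in ESCs, 86.8 and 105 in D-EPSCs and 36.0 and 54.0 in L-EPSCs, fell by 1.06 (SE 0.28, adjusted p = 0.019). In D-EPSCs against ESCs neither was called, with -0.17 for Twist1 (adjusted p = 0.52) and 0.03 for Snai2 (adjusted p = 0.96), and L-EPSCs against D-EPSCs gave -0.93 (adjusted p = 0.006) and -1.10 (adjusted p = 0.021). The Snai2 call against ESCs was lost when any 1 of the 4 ESC and L-EPSC libraries was left out, with log2 fold changes between -1.37 and -0.75. Snai1 (chromosome 2, 167363695 to 167368314, plus strand) had 121 and 133 in ESCs, 156 and 154 in D-EPSCs and 81.2 and 87.3 in L-EPSCs. D-EPSCs were highest and L-EPSCs lowest, without overlap. Against ESCs, the Snai1 log2 fold change was 0.29 in D-EPSCs (adjusted p = 0.14) and -0.59 in L-EPSCs, just inside the fold threshold (adjusted p = 0.0096), and L-EPSCs fell below D-EPSCs by 0.87 (SE 0.13, adjusted p = 0.002). The L-EPSCs, where Snai1, Snai2 and Twist1 were lowest, also had the lowest fibroblast marker sum, and the relation was not tested.

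In all, 4 of 10 members were called in D-EPSCs against ESCs, 3 higher and 1 lower, where 20.7% of all genes tested were called (10.8% higher and 9.98% lower). In L-EPSCs against ESCs 5 of 10 were called, 1 higher and 4 lower, where 20.3% of all genes were (8.80% higher and 11.5% lower). Between L-EPSCs and D-EPSCs 5 of 10 were called, all lower in L-EPSCs, against 13.4% of all genes (4.80% higher and 8.58% lower). Those 5 were Epcam, Snai1, Snai2, Zeb2 and Twist1. The calls of Snai2, Zeb2 and Twist1 depended on single libraries. Without 1 library at a time, their log2 fold changes were -1.38 to -0.81, -0.85 to -0.68 and -1.09 to -0.77. Epcam and Snai1 kept their calls, at -1.23 to -1.01 and -0.92 to -0.82.

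**Figure D2:**
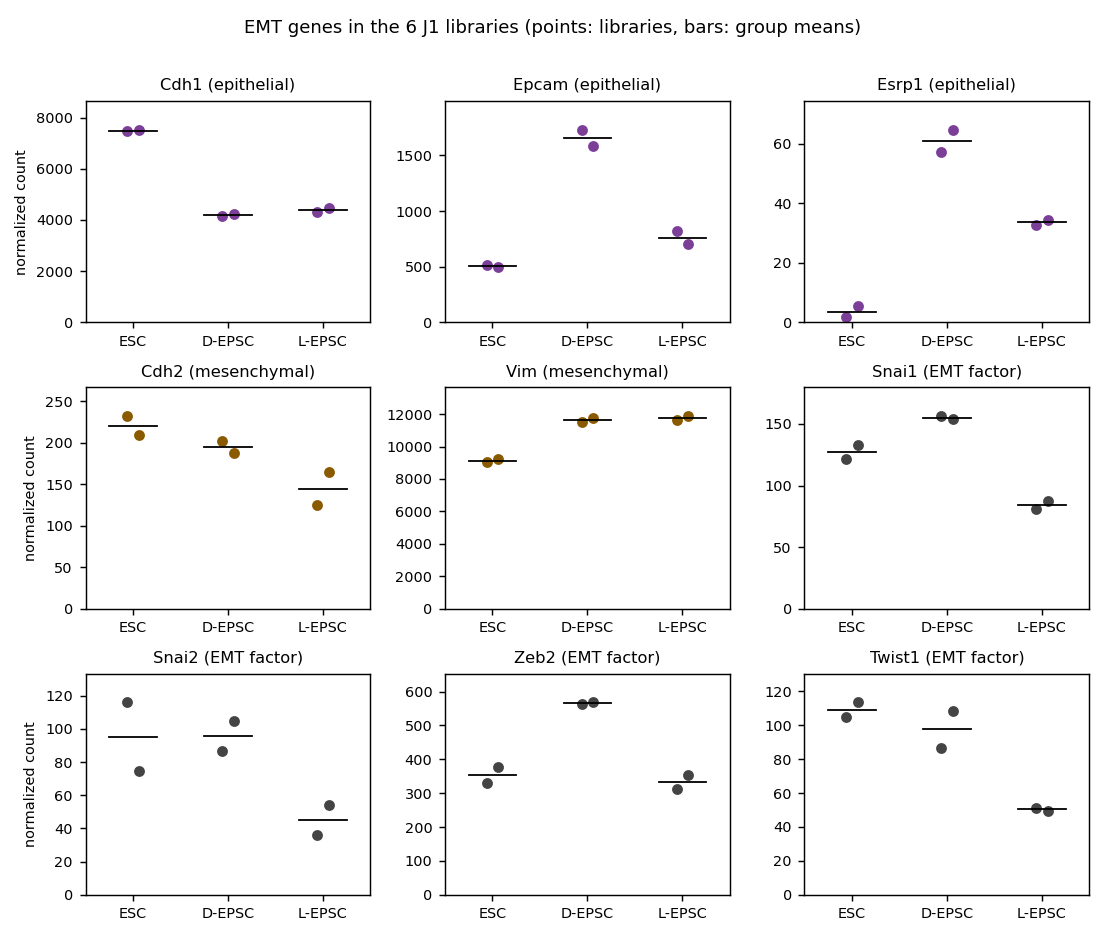
Normalized counts of 9 members (Zeb1 is left out) in the 6 J1 libraries, with 1 point per library and a bar at each group mean. Cdh1 is at 7461 or more in ESCs and at most 4458 in EPSCs, and Twist1 is at most 51.4 in L-EPSCs and at least 86.8 elsewhere.

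Wider lists of genes related to EMT moved in both directions in J1 cells. Over all genes tested, low ones included, 10.8% rose and 9.98% fell in D-EPSCs against ESCs, and 8.80% rose and 11.5% fell in L-EPSCs. Of 30 epithelial junction genes, 6 rose and 8 fell in D-EPSCs, with a list median log2 fold change of -0.28 against 0.013 over all genes. The tight junction gene Cgn had a log2 fold change of 3.33 and Lsr, a receptor of tricellular junctions, one of 1.42, while Krt8 stood at -3.82 and Cldn4 at -2.91. In L-EPSCs 7 rose and 9 fell, with log2 fold changes of 3.07 for Cgn, 1.47 for the desmosome gene Pkp2, -3.23 for Cldn4 and -2.43 for Krt8. Of 10 epithelial regulators, 2 rose and 5 fell in D-EPSCs, and 1 rose and 4 fell in L-EPSCs. Grhl2, an activator of Cdh1 in epithelia, rose by 2.55 in D-EPSCs, and Elf3 fell in both states, with log2 fold changes of -3.42 and -3.07.

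Mesenchymal effector genes were more often lower than higher in J1 EPSCs. Of 18, 3 rose and 7 fell in D-EPSCs, and 1 rose and 8 fell in L-EPSCs, with list medians of -0.46 and -0.56. Log2 fold changes were -1.76 in D-EPSCs and -2.08 in L-EPSCs for Acta2, smooth muscle actin, and -1.73 in L-EPSCs for the matrix protein Sparc, whereas S100a4 rose, at 2.83 and 0.72. The fibroblast marker sum was likewise highest in ESCs, but single markers went both ways in D-EPSCs, and their part in these differences was not tested. Of 13 other EMT factors, 2 rose and 3 fell in D-EPSCs and 1 rose and 3 fell in L-EPSCs. Twist2 rose by 1.23 in D-EPSCs, and Klf8 fell in both states, at -1.74 and -1.31.

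Of 12 TGF-beta pathway genes, 2 rose and 3 fell in D-EPSCs, and 2 rose and 4 fell in L-EPSCs. The ligand Tgfb1 rose by 1.06 and 1.16 on the log2 scale, while Tgfb2 fell, at -2.20 and -2.77, as did Tgfb3, at -1.21 and -1.91. Among 11 further cadherins, 4 rose and 1 fell in D-EPSCs, and 3 rose and 3 fell in L-EPSCs. Cdh3, P-cadherin, rose by 2.93 and 1.67, and Cdh4 fell, at -2.12 and -3.45. The macrophage marker sum was also higher in both J1 EPSC states than in ESCs, and its part in the J1 list values was not tested.

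The same question, how ESCs and L-EPSCs differ, was asked in the tet-off lines, where fibroblast markers were low. Cdh2 fell in L-EPSCs of all 3 lines. It had 54.4 and 30.9 normalized counts in Oct4 ESCs and 16.0 and 17.97 in untreated Oct4 L-EPSCs, 107 and 108 against 16.2 and 15.0 in the Sox2 line, and 104 and 87.4 against 27.7 and 18.4 in the Nanog line. ESCs lay above L-EPSCs without overlap in each line. The log2 fold change was -1.23 in the Oct4 line (SE 0.34, adjusted p = 0.0071), -2.71 in the Sox2 line (SE 0.34, adjusted p = 7.5e-06) and -2.03 in the Nanog line (SE 0.34, adjusted p = 0.00011). The Oct4 call was lost without ESC replicate 1, where the log2 fold change was -0.83. The difference between the Oct4 and Sox2 lines was 1.48 (SE 0.48, adjusted p = 0.039), a call lost without most single libraries (1.09 to 1.88). It was 0.80 for Oct4 minus Nanog (SE 0.48, adjusted p = 0.27) and -0.68 for Sox2 minus Nanog (SE 0.48, adjusted p = 0.36). Both were beyond the fold threshold but imprecise and not called.

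Cdh2 was also small beside Cdh1. Per kilobase of exon, Cdh2 stood at 0.363% to 0.930% of Cdh1 in the 6 tet-off ESC libraries and at 0.0918% to 0.150% in the 6 untreated L-EPSC libraries, with no overlap. With Dox the share was 0.187% and 0.135% in the Oct4 line, 0.0378% and 0.0514% in the Sox2 line and 0.200% and 0.161% in the Nanog line. In J1 cells, where fibroblast marker RNA was high, it was 1.76% and 1.58% in ESCs, 2.75% and 2.52% in D-EPSCs and 1.64% and 2.09% in L-EPSCs, so ESCs and L-EPSCs overlapped there.

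**Figure D3:**
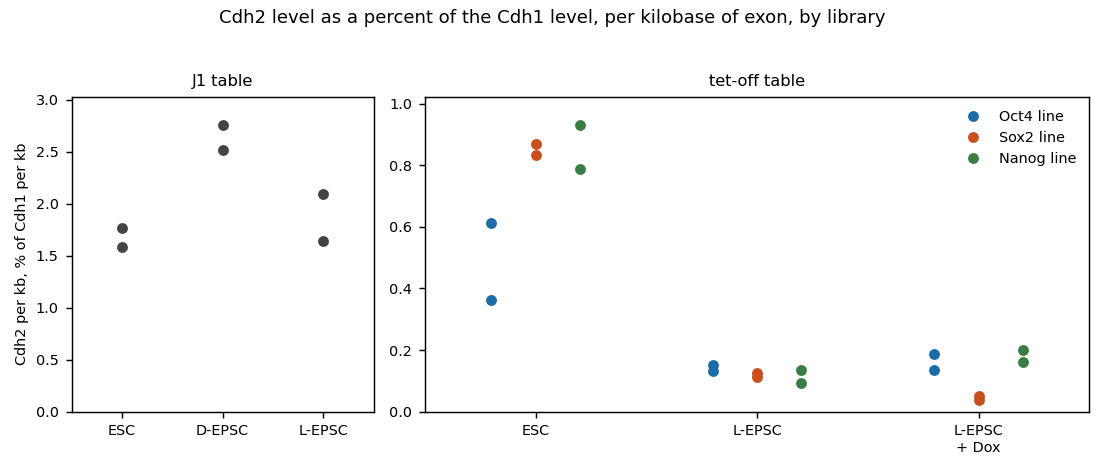
Cdh2 per kilobase of exon as a percent of Cdh1 per kilobase, 1 point per library, for the J1 table (left) and the tet-off table (right, coloured by line), each on its own axis from 0. Tet-off ESC libraries lie at 0.363% or above and untreated L-EPSC libraries at 0.150% or below.

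Cdh1 itself differed between lines. It had 5028 and 4828 normalized counts in Oct4 ESCs and 6847 and 6782 in Oct4 L-EPSCs, 7280 and 7065 against 7358 and 7536 in the Sox2 line, and 6312 and 6288 against 11533 and 11335 in the Nanog line. L-EPSCs lay above ESCs in each line, most in the Nanog line and least in the Sox2 line. Cdh1 rose in Nanog L-EPSCs by 0.86 on the log2 scale (SE 0.03, adjusted p = 8.3e-13), and its log2 fold change was 0.47 in the Oct4 line (adjusted p = 1.2e-09) and 0.05 in the Sox2 line (adjusted p = 0.18). The J1 value was negative, and since it comes from the other table the difference from J1 was not tested.

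Epcam and Esrp1 were lower in Sox2 L-EPSCs. Esrp1 had 549 and 570 normalized counts in Sox2 ESCs against 68.1 and 53.9 in Sox2 L-EPSCs, 530 and 513 against 225 and 206 in the Nanog line, and 189 and 175 against 118 and 146 in the Oct4 line. The ESC libraries lay above the L-EPSC libraries in each line, opposite to J1 cells. Esrp1 fell by 3.19 on the log2 scale in the Sox2 line (SE 0.13, adjusted p = 1.4e-11) and by 1.27 in the Nanog line (SE 0.13, adjusted p = 4.6e-07), and its log2 fold change in the Oct4 line was -0.47 (adjusted p = 0.007). Epcam had 1546 and 1483 against 838 and 793 in the Sox2 line and fell by 0.89 (SE 0.05, adjusted p = 3.5e-10). In the other lines its log2 fold change was 0.22 (Oct4) and -0.29 (Nanog).

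Vim had 2322 and 2212 normalized counts in Oct4 ESCs against 1182 and 1138 in Oct4 L-EPSCs, 2746 and 2644 against 2609 and 2581 in the Sox2 line, and 3829 and 4161 against 3219 and 3144 in the Nanog line. L-EPSC libraries were below ESC libraries in each line. It fell in the Oct4 line by 0.97 on the log2 scale (SE 0.04, adjusted p = 2e-11), with log2 fold changes of -0.05 in the Sox2 line and -0.33 in the Nanog line.

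The factors were low in the tet-off lines and their calls were less stable. Twist1 had 27.2 and 18.4 normalized counts in Oct4 ESCs and 49.7 and 60.2 in Oct4 L-EPSCs and rose by 1.25 on the log2 scale (SE 0.44, adjusted p = 0.029), a call lost when any of 3 of the 4 libraries was left out (adjusted p up to 0.18). Zeb2 had 18.2 and 17.3 in Sox2 ESCs against 9.72 and 4.99 in Sox2 L-EPSCs and fell by 1.23 (SE 0.43, adjusted p = 0.033). Snai2 had 15.7 and 5.61 in Nanog ESCs, from 15 and 5 reads, against 23.4 in both Nanog L-EPSC libraries and rose by 1.22 (SE 0.43, adjusted p = 0.031). The Zeb2 and Snai2 calls were each lost without any 1 of 3 of the 4 libraries, and without Nanog ESC replicate 2 the Snai2 log2 fold change was 0.55. Snai1 was not called between ESCs and L-EPSCs in any line, with log2 fold changes of 0.00, -0.39 and -0.19 in the Oct4, Sox2 and Nanog lines. The other factor values were not called, at 0.56 (Oct4) and 0.93 (Sox2) for Snai2, 0.17 (Oct4) and -0.51 (Nanog) for Zeb2, and 0.58 (Sox2) and -0.70 (Nanog) for Twist1.

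Of the 10 members, 3 were called in the Oct4 line, 1 higher and 2 lower, where 28.4% of all genes tested were called (13.0% higher and 15.4% lower). In the Sox2 line 4 were called, all lower, against 19.6% of all genes (7.99% higher and 11.6% lower), and in the Nanog line 4, 2 in each direction, against 26.9% (12.2% higher and 14.7% lower). Apart from Cdh2, no member was called in all 3. Tests of the difference between lines called 4 members for Oct4 against Sox2 (10.0% of all genes), 3 for Oct4 against Nanog (14.7%) and 3 for Sox2 against Nanog (14.8%).

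**Figure D4:**
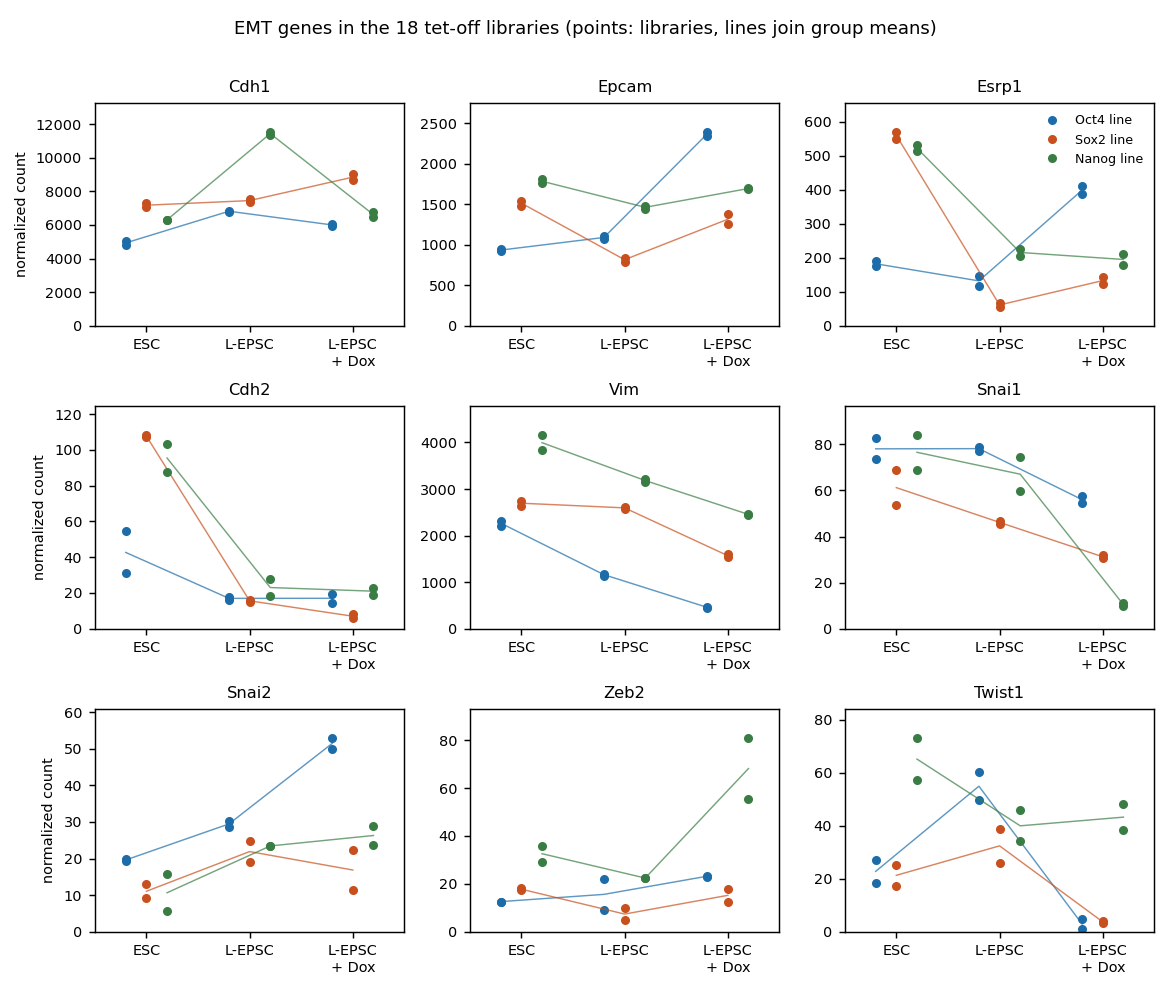
Normalized counts of 9 members (Zeb1 is left out) in the 18 tet-off libraries, with 1 point per library, coloured by line, and lines through group means of ESCs, L-EPSCs and L-EPSCs with Dox. Cdh2 is at 30.9 or more in ESCs and at most 27.7 in L-EPSCs, and Twist1 is at most 4.61 in Oct4 and Sox2 L-EPSCs with Dox.

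Related lists also differed between the lines at this step. Over all genes tested, low ones included, 13.0%, 7.99% and 12.2% rose in the Oct4, Sox2 and Nanog lines, and 15.4%, 11.6% and 14.7% fell. Of 30 epithelial junction genes, 13 rose and 5 fell in Oct4 L-EPSCs, 3 rose and 11 fell in Sox2 L-EPSCs and 9 rose and 8 fell in Nanog L-EPSCs, with list medians of 0.30, -0.36 and -0.12 where the medians over all genes were 0. Krt19, a keratin of simple epithelia, rose by 3.55 on the log2 scale in the Oct4 line and by 1.17 in the Nanog line, and Krt8 fell by 1.81 in the Sox2 line. Epithelial regulators gave 2 higher and 2 lower of 10 in the Oct4 line, 0 and 2 in the Sox2 line, and 3 and 4 in the Nanog line, where Tfap2c rose by 1.51 and Grhl2 fell by 2.76. Mesenchymal effectors rose for 7, 3 and 6 of 18 and fell for 1, 1 and 2. Lgals1 and Tpm1 rose by 1.27 and 1.22 in the Oct4 line, Fn1, fibronectin, by 0.72 in the Sox2 line and Tgfbi by 1.10 in the Nanog line, and Mmp14 fell, at -2.85 in the Oct4 line and -1.83 in the Nanog line. Other lineage markers moved at this step too. Summed primitive endoderm markers stood at 6394 and 6539 in Oct4 ESCs and 21271 and 21517 in Oct4 L-EPSCs (7 of 10 rose, 1 fell), at 7576 and 7631 against 12817 and 13213 in the Sox2 line (4 rose, 5 fell) and at 3250 and 3289 against 2661 and 2682 in the Nanog line (5 rose, 2 fell). Summed trophoblast markers stood at 599 and 650 against 1332 and 1341 in the Oct4 line (5 of 9 rose, 0 fell by limma), at 1242 and 1293 against 646 and 658 in the Sox2 line (0 rose by limma, 3 fell) and at 278 and 289 against 209 and 263 in the Nanog line (2 rose, 2 fell). Their part in the list counts was not tested.

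Among 13 other EMT factors, 3 rose and 4 fell in the Oct4 line, 3 rose and 1 fell in the Sox2 line, and 7 rose and 2 fell in the Nanog line, where Klf8 fell by 1.27. TGF-beta pathway genes rose for 2, 1 and 1 of 12 and fell for 2, 3 and 3. Smad7, a feedback inhibitor of the pathway, had log2 fold changes of -1.02, -0.89 and -1.97 in the Oct4, Sox2 and Nanog lines, and Tgfb1 ones of -1.88, -1.69 and -0.93. Of 10 cadherins tested, 2 rose and 2 fell in the Oct4 line, 0 and 5 in the Sox2 line and 1 and 3 in the Nanog line. Cdh3 fell alongside Cdh2 in each, at -1.12, -1.49 and -1.85.

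Dox was used to ask how L-EPSCs respond when each factor is lowered. No cells without a tet-off transgene were treated with Dox. Within a line, effects of Dox itself and of the lowered factor therefore cannot be told apart. Pou5f1 and Sox2 transcripts were nearly lost in their lines. The Nanog transcript in the Nanog line was reduced but stayed at 3166 and 3112 normalized counts. The 3 lines thus differ in how far the transcript fell. For protein, the paper reports loss of Oct4, Sox2 and Nanog in their lines with Dox, by western blot. It names the day of Dox for the blots but not for the RNA, so the times may differ. The Dox comparisons share the untreated L-EPSC libraries with those above. In the Oct4 line Epcam and Esrp1 rose while Vim and Twist1 fell. Epcam had 1115 and 1066 normalized counts without Dox and 2394 and 2345 with it, and rose by 1.12 on the log2 scale (SE 0.05, adjusted p = 7.9e-12). Esrp1 had 118 and 146 against 410 and 387 and rose by 1.60 (SE 0.13, adjusted p = 2.7e-08). Neither overlapped between conditions.

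Vim in the Oct4 line had 1182 and 1138 normalized counts without Dox and 469 and 448 with it, the lowest Vim values of the table, and fell by 1.34 on the log2 scale (SE 0.04, adjusted p = 2.9e-13). Twist1 had 49.7 and 60.2 without Dox and 4.61 and 1.11 with it, from 4 reads and 1 read. Its fitted log2 fold change was -4.02 (SE 0.44, adjusted p = 9.6e-07), a size that rests on those few reads. Cdh1, at 6847 and 6782 without Dox and 5926 and 6067 with it, had a log2 fold change of -0.18, and Cdh2 one of -0.01. Snai1, Snai2 and Zeb2 were not called, at -0.47, 0.78 and 0.67. Summed trophoblast markers were 1332 and 1341 without Dox and 7992 and 8302 with it, and pluripotency markers 54901 and 56196 against 7619 and 7791, and their relation to the members was not tested.

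In the Sox2 line with Dox, Esrp1 rose and Cdh2 and Twist1 fell. Esrp1 had 68.1 and 53.9 normalized counts without Dox and 143 and 123 with it, and rose by 1.11 on the log2 scale (SE 0.13, adjusted p = 2.5e-06). Twist1 had 38.9 and 25.9 against 4.12 and 3.27, from 5 and 4 reads, and fell by 2.81 (SE 0.44, adjusted p = 6e-05). Neither overlapped between conditions.

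Cdh2 in the Sox2 line had 16.2 and 15.0 normalized counts against 5.77 and 8.18, from 7 and 10 reads, and fell by 1.07 (SE 0.34, adjusted p = 0.019), a call lost without replicate 1 of either condition. Without untreated replicate 2 the Esrp1 log2 fold change was 0.95, inside the threshold. Epcam and Vim did not overlap between conditions but stayed inside the fold threshold, with log2 fold changes of 0.69 (adjusted p = 5.4e-09) and -0.73 (adjusted p = 9.8e-10). Cdh1, Snai1, Snai2 and Zeb2 were not called, at 0.25, -0.55, -0.42 and 0.99. Trophoblast markers summed to 646 and 658 without Dox and 3469 and 3485 with it.

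In the Nanog line with Dox, Snai1 fell and Zeb2 rose. Snai1 had 59.6 and 74.4 normalized counts without Dox and 9.66 and 11.2 with it, the lowest Snai1 values of the table, and fell by 2.57 on the log2 scale (SE 0.22, adjusted p = 2.1e-07). Zeb2 had 22.4 in both untreated libraries and 55.3 and 80.9 with Dox and rose by 1.54 (SE 0.43, adjusted p = 0.014). The Zeb2 call was lost without Dox replicate 2 or either untreated replicate, with adjusted p from 0.06 to 0.12. Cdh1, at 11533 and 11335 without Dox and 6475 and 6743 with it, had a log2 fold change of -0.79 (SE 0.03, adjusted p = 2e-11), inside the threshold used for Dox. Epcam, Vim, Cdh2 and Snai2 were not called, at 0.21, -0.37, -0.11 and 0.15. Esrp1 overlapped between conditions, with a log2 fold change of -0.15, and trophoblast markers summed to between 209 and 263 without Dox and between 318 and 324 with it.

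The members called with Dox were 4 of 10 in the Oct4 line, 2 in each direction, against 19.3% of all genes tested (8.53% higher and 10.8% lower). In the Sox2 line 3 were called, 1 higher and 2 lower, against 15.1% (7.79% higher and 7.32% lower), and in the Nanog line 2, 1 in each direction, against 5.39% (2.80% higher and 2.59% lower). Twist1 was called in the Oct4 and Sox2 lines, and the difference from the Nanog line, where its log2 fold change was 0.12, was -4.13 (SE 0.62, adjusted p = 5.4e-05) for Oct4 and -2.93 (SE 0.62, adjusted p = 0.0016) for Sox2. For Snai1 the Oct4 and Sox2 lines differed from the Nanog line by 2.09 (SE 0.31, adjusted p = 4.3e-05) and 2.02 (SE 0.31, adjusted p = 7.9e-05). Tests of the difference called 0 members for Oct4 against Sox2 by limma (6.81% of all genes). There Cdh1, Epcam and Vim passed the p threshold but not the fold threshold, with differences of -0.43 (adjusted p = 8.5e-07), 0.43 (adjusted p = 0.00013) and -0.61 (adjusted p = 1.4e-06). Esrp1 and Cdh2 had only an unadjusted p under 0.05, with differences of 0.48 (adjusted p = 0.07) and 1.06 (adjusted p = 0.13). They called 3 for Oct4 against Nanog (14.8%) and 4 for Sox2 against Nanog (11.3%).

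**Figure D5:**
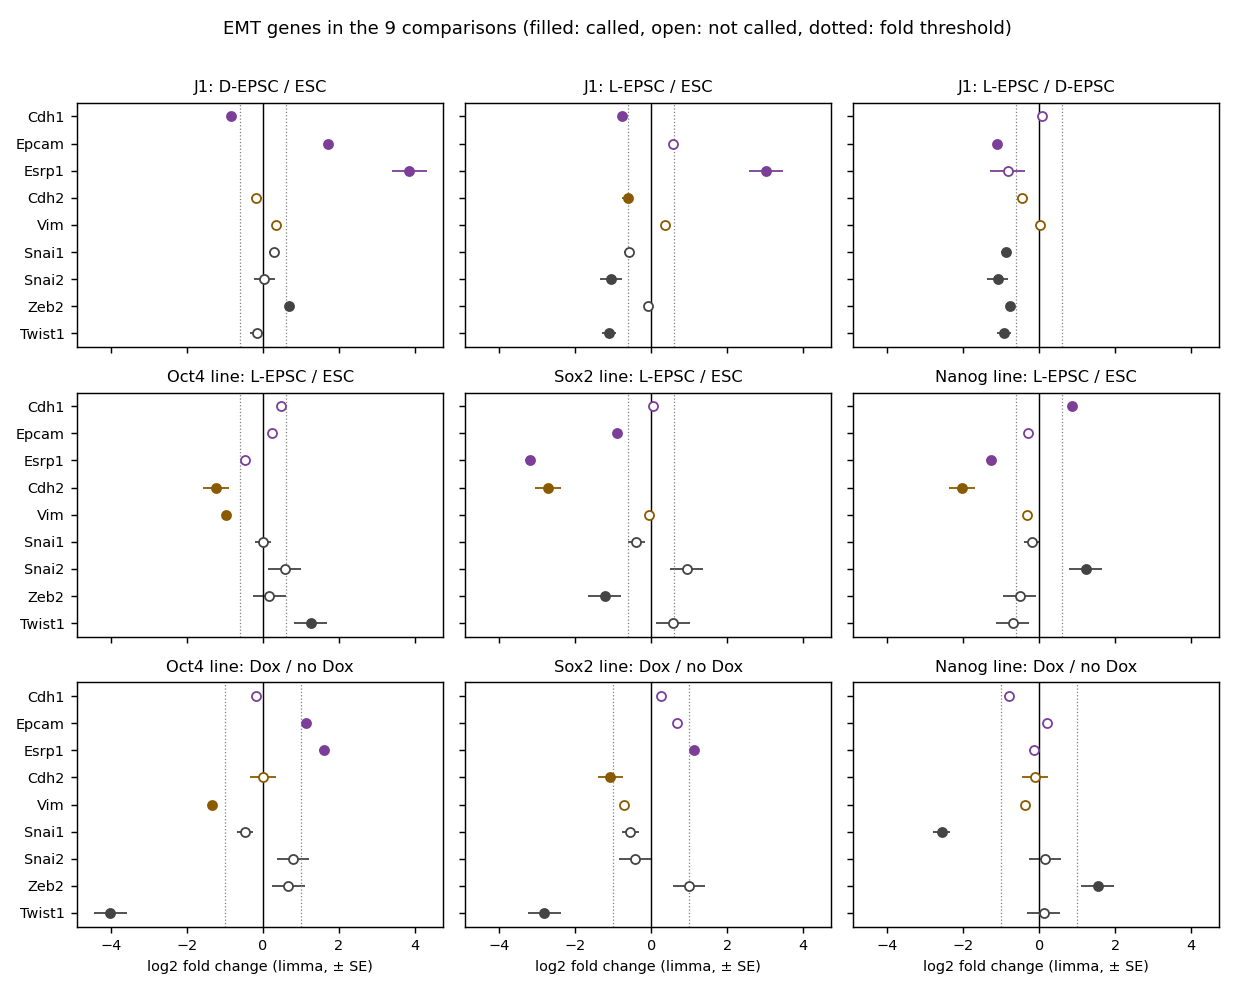
Log2 fold changes (limma, horizontal bars are SE) of 9 members in the 9 comparisons, with filled points for called members and dotted lines at the fold threshold of 0.6, or 1 for Dox. Cdh2 is to the left of 0 in all 4 comparisons of L-EPSCs with ESCs, and Twist1 lies at -4.02 and -2.81 with Dox in the Oct4 and Sox2 lines.

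Epithelial lists were mostly higher with Dox in the Oct4 and Sox2 lines. Over all genes tested, low ones included, 8.53%, 7.79% and 2.80% rose in the Oct4, Sox2 and Nanog lines, and 10.8%, 7.32% and 2.59% fell. Of 30 junction genes, 13 rose and 1 fell in the Oct4 line, 10 rose and 1 fell in the Sox2 line, and 3 rose and 0 fell in the Nanog line. The keratins Krt19 and Krt18, which trophoblast also expresses, rose by 3.03 and 2.87 on the log2 scale in the Oct4 line and by 3.31 and 2.83 in the Sox2 line, and Krt8 and Krt19 rose by 1.21 and 1.06 in the Nanog line. Epithelial regulators rose for 7, 5 and 2 of 10 and fell for 0, 1 and 1. Esrp2, the paralog of Esrp1, rose by 3.14 in the Oct4 line and 2.26 in the Sox2 line, Tfap2a, which also acts in trophoblast, by 3.74 and 2.24, and Grhl2 by 1.31 in the Nanog line.

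Mesenchymal effectors rose for 4, 7 and 1 of 18 and fell for 3, 2 and 0 in the Oct4, Sox2 and Nanog lines. Fn1 fell, with log2 fold changes of -2.58 in the Oct4 line and -1.57 in the Sox2 line, whereas Lgals1 rose by 2.71 and 2.43, and Tgfbi rose by 1.57, 2.62 and 1.25 in the Oct4, Sox2 and Nanog lines. The other EMT factors fell for 4, 5 and 3 of 13 and rose for 0, 1 and 0, with list medians of -0.60, -0.51 and -0.63 where the medians over all genes were 0. TGF-beta pathway genes rose for 0, 0 and 1 of 12 and fell for 1, 1 and 0, with Skil at -2.34 in the Oct4 line. Cadherins rose for 3, 3 and 0 of 10 and fell for 1, 2 and 0, with Cdh5 at 1.39 in the Oct4 line and Cdh3 at -1.12 in the Sox2 line. Of 8 genes of the primitive streak, where an EMT occurs in the embryo, 0 rose with Dox in any line by limma and 1 fell, in the Sox2 line. In the Oct4, Sox2 and Nanog lines, 3, 4 and 2 of the 8 had at most 3 reads in every library compared. A further 3, 1 and 2 were that low in 1 condition only, so few changes in this list could be detected.

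Across the 9 tet-off groups the members varied by different amounts and did not follow a single axis. From the lowest to the highest group mean, Twist1 spanned 22.8 times, Cdh2 15.4, Zeb2 9.26, Esrp1 9.18, Vim 8.71, Snai1 7.47, Snai2 4.83, Epcam 2.91 and Cdh1 2.32. The lowest Twist1 mean rests on libraries with 4 reads and 1 read, so the size of its span is imprecise. Over the 9 group means, which share lines and size factors, Pearson's r of log2 levels was 0.77 between Epcam and Esrp1, 0.71 between Vim and Twist1, -0.78 between Vim and Snai2 and -0.34 between Cdh1 and Cdh2. Esrp1, an epithelial gene, had an r of 0.72 with Cdh2, a mesenchymal gene, as both were highest in Sox2 and Nanog ESCs.

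Genes most like a member over these means, among genes with a mean of 50 or more, were Synm, an intermediate filament gene, for Twist1 (r = 0.98), Akap12 for Vim (0.98), Gpx4 for Snai2 (0.97), Slc26a10 for Esrp1 (0.97), Halr1 for Cdh2 (0.965), Zfp90 for Zeb2 (0.94), Zadh2 for Epcam (0.92), Hinfp for Snai1 (0.92) and Stat2 for Cdh1 (0.89). With 9 means and many genes, high values of r are common, and they are given as a description.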

How the data were processed

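Poly(A) RNA of 24 libraries was sequenced. Per the labels and methods, the authors trimmed reads with Trim Galore 0.6.4, aligned them to NCBIM37 with STAR 2.7.9a, counted genes with HTSeq 0.11.2 and normalized with DESeq2 (version given as 4.1.1). The strand setting of the counting is not given in the sources used here. The deposited values are a normalized signal, gene counts divided by a size factor per library. Dividing by the value of 1 read recovered whole reads (tolerance 0.05).

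Differences were tested with limma 3.58.1 (R 4.3.3) on log2(value + 1), with all groups of a table in 1 fit, over genes with at least 2 reads (21533 genes for J1 and 24007 for the tet-off lines), with Benjamini-Hochberg adjustment. Fold changes are on that scale and understate changes of low genes. Alternatives were edgeR 4.0.16 and DESeq2 1.42.0 on recovered reads, TMM scaling, median centring, a pseudocount of 0.1, a mean of at least 10, only the groups compared, a replicate block, another fold threshold, and leaving out each replicate. The pipeline was tested on simulated data.

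Every member is reported in each of the 9 comparisons, except Zeb1, which was too low for a fold change. From the lists of epithelial junction, epithelial regulator, mesenchymal effector, other EMT factor, TGF-beta pathway and cadherin genes, called genes with a mean of 100 or more and the largest fold changes were named, at most 2 in each direction. Some genes this rule names are not reported here. Members and lists were chosen with earlier results of these data known. Positions are NCBIM37, and promoters are from RefSeq on GRCm38.p6.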

Additional observations from a re-analysis of the deposited data

Results flagged for a closer look

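The values here are differences between 2 tet-off lines in the same contrast, each tested with an interaction term in limma over all genes. They are log2 differences, with 2 libraries in each group, and the conversion and Dox contrasts share the untreated L-EPSC libraries. No explanation was tested.

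For the change from ESCs to L-EPSCs, the Oct4 line differed from the Sox2 line in 4 members. Epcam differed by 1.11 (SE 0.07, adjusted p = 7.9e-09), with 0.22 in the Oct4 line and -0.89 in the Sox2 line. Esrp1 differed by 2.72 (SE 0.18, adjusted p = 2.8e-08), with -0.47 in the Oct4 line and -3.19 in the Sox2 line. Cdh2 differed by 1.48 (SE 0.48, adjusted p = 0.039), with -1.23 in the Oct4 line and -2.71 in the Sox2 line. The Cdh2 call was lost without most single libraries. Vim differed by -0.91 (SE 0.06, adjusted p = 3e-08), with -0.97 in the Oct4 line and -0.05 in the Sox2 line.

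For the change from ESCs to L-EPSCs, the Oct4 line differed from the Nanog line in 3 members. Esrp1 differed by 0.80 (SE 0.18, adjusted p = 0.0035), with -0.47 in the Oct4 line and -1.27 in the Nanog line. Vim differed by -0.64 (SE 0.06, adjusted p = 9.6e-07), with -0.97 in the Oct4 line and -0.33 in the Nanog line. Without 1 library at a time the Vim difference ranged from -0.70 to -0.58, on both sides of the fold threshold. Twist1 differed by 1.95 (SE 0.62, adjusted p = 0.029), with 1.25 in the Oct4 line and -0.70 in the Nanog line. The Twist1 call was lost without most single libraries.

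For the change with Dox in L-EPSCs, the Oct4 line differed from the Nanog line in 3 members. Esrp1 differed by 1.75 (SE 0.18, adjusted p = 1.1e-06), with 1.60 in the Oct4 line and -0.15 in the Nanog line. Snai1 differed by 2.09 (SE 0.31, adjusted p = 4.3e-05), with -0.47 in the Oct4 line and -2.57 in the Nanog line. Twist1 differed by -4.13 (SE 0.62, adjusted p = 5.4e-05), with -4.02 in the Oct4 line and 0.12 in the Nanog line.

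For the change from ESCs to L-EPSCs, the Sox2 line differed from the Nanog line in 3 members. Cdh1 differed by -0.81 (SE 0.04, adjusted p = 1.1e-09), with 0.05 in the Sox2 line and 0.86 in the Nanog line. Epcam differed by -0.60 (SE 0.07, adjusted p = 5e-06), with -0.89 in the Sox2 line and -0.29 in the Nanog line. That value was at the edge of the fold threshold. Without 1 library at a time it ranged from -0.64 to -0.56, on both sides of the threshold. Esrp1 differed by -1.91 (SE 0.18, adjusted p = 9.8e-07), with -3.19 in the Sox2 line and -1.27 in the Nanog line.

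For the change with Dox in L-EPSCs, the Sox2 line differed from the Nanog line in 4 members. Cdh1 differed by 1.04 (SE 0.04, adjusted p = 1.9e-11), with 0.25 in the Sox2 line and -0.79 in the Nanog line. Esrp1 differed by 1.26 (SE 0.18, adjusted p = 5e-05), with 1.11 in the Sox2 line and -0.15 in the Nanog line. Snai1 differed by 2.02 (SE 0.31, adjusted p = 7.9e-05), with -0.55 in the Sox2 line and -2.57 in the Nanog line. Twist1 differed by -2.93 (SE 0.62, adjusted p = 0.0016), with -2.81 in the Sox2 line and 0.12 in the Nanog line.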

How the results depend on the processing

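Under the other settings, 1729 log2 fold changes of members kept their direction and side of the threshold, 68 lost the call, 15 gained it and 24 reversed, and none of the reversed values had been called. Snai1 in Oct4 L-EPSCs against ESCs was -0.0441 with median centring, and Cdh2 with Dox in the Oct4 line was 0.0048 by edgeR and 5e-04 by DESeq2. Leaving out 1 replicate reversed Cdh2 with Dox in the Nanog line (-0.39 to 0.18) and the Oct4 line (-0.22 to 0.20) and its difference between these lines (-0.19 to 0.38), Snai1 in Oct4 L-EPSCs against ESCs (-0.0795 to 0.0871), Snai2 in D-EPSCs (-0.28 to 0.35), with Dox in the Sox2 line (-0.87 to 0.0353) and between the Oct4 or Sox2 and Nanog lines at conversion (-1.32 to 0.0128 and -0.95 to 0.38), Twist1 with Dox in the Nanog line (-0.0922 to 0.33), and Zeb2 in J1 L-EPSCs (-0.18 to 0.0083), in Oct4 L-EPSCs (-0.44 to 0.77) and in the Dox difference of Oct4 and Sox2 (-0.93 to 0.28). The cause was not tested.

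A fold threshold of 1 gave 2 members in D-EPSCs against ESCs, 3 in L-EPSCs against ESCs, 2 in L-EPSCs against D-EPSCs, and 1 each in the conversion differences of Oct4 and Nanog and of Sox2 and Nanog. A threshold of 0.6 gave 5 with Dox in the Sox2 line, and 1 and 6 in the Dox differences of Oct4 from Sox2 and from Nanog. With only the groups compared, 3 were called in J1 L-EPSCs against ESCs, 1 in Oct4 L-EPSCs against ESCs and 1 with Dox in the Nanog line. There the Nanog Dox count over all genes fell too, from 1293 to 479. Counts over all genes also moved with the threshold and with single libraries. A change in a member count is therefore not read as particular to the members. Without 1 replicate at a time, the members called were 3 to 4 in D-EPSCs, 2 to 5 in L-EPSCs and 2 to 4 between the EPSC states. At conversion they were 2 to 4 (Oct4), 3 to 4 (Sox2) and 3 to 4 (Nanog), and with Dox 4 to 5, 2 to 3 and 1 to 2. Differences between lines gave 3 to 5, 1 to 3 and 2 to 3 at conversion (Oct4 and Sox2, Oct4 and Nanog, Sox2 and Nanog) and 0 to 1, 3 to 4 and 4 to 4 with Dox. The conversion difference in Cdh2 between Oct4 and Sox2 was lost without most single libraries (adjusted p up to 0.12), as was that in Twist1 between Oct4 and Nanog (up to 0.11).

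Over all genes, a threshold of 1 lowered the calls from 4380 to 2899 (J1 L-EPSCs against ESCs), 2881 to 1836 (against D-EPSCs), 6822 to 4466, 4713 to 2990 and 6457 to 4196 (Oct4, Sox2 and Nanog conversion), and 2403 to 1286, 3536 to 2059 and 3551 to 2199 (their differences). A threshold of 0.6 raised them from 3628 to 5568 and 1293 to 2386 (Sox2 and Nanog Dox), and 1635 to 3097, 3545 to 5414 and 2714 to 4383 (Dox differences). With only the groups compared, Nanog Dox gave 479, and without D-EPSC replicate 2 the EPSC states differed in 1913 genes. With the replicate block, 4349 genes were called in D-EPSCs against 4466 without it, and no count of members changed. Same-numbered libraries did not deviate together (r from -0.062 to 0.063 over both tables), so the numbers were not taken as pairs. Zeb1, Esrp1 in J1 ESCs and Twist1 with Dox in the Oct4 and Sox2 lines rest on few reads, which limits how precisely they can be compared. The cause of these low counts was not tested.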
